A study of Mus musculus with 14 samples.

Results

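S100a4, 6 of its relatives (S100a1, S100a6, S100a10, S100a11, S100a13 and S100a16) and Stmn1 were followed through 14 libraries of mouse tumour cell lines given an agonist of RIG-I or a control agonist. These are 8 of the 34866 gene identifiers in the deposited tables, and the 7 S100 genes belong to a family of 17 in the same tables. S100a4 was selected on its agonist log2 fold change and adjusted p, since its transcript was lower with the RIG-I agonist in all 3 lines, and Stmn1 is 1 of the 3 genes called lower in E0771. The agonist effect on these 2 genes is therefore given as a description without a test. The question put to the other 6 genes was whether they followed S100a4.

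The lines were CT26, a colorectal carcinoma of BALB/c mice, E0771, a mammary carcinoma of C57BL/6 mice, and MC38, a colon adenocarcinoma of C57BL/6 mice. Cells were seeded at 100000 per well, in RPMI for CT26 and E0771 and in DMEM for MC38, and received 0.5 ug/ml of either agonist for 24 h. Poly(A) RNA was made into stranded libraries: each agonist had 3 in CT26, 2 in E0771 and 2 in MC38. No untreated cells were analysed here, so each difference is between the RIG-I agonist and the control agonist. The labels do not say that replicates were separate cultures, so p-values measure only the spread among these libraries.

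Total counts ran from 32826742 to 40564102 in CT26, from 12413347 to 13399247 in E0771 and from 12347361 to 18964563 in MC38. All 6 genes used to check the agonist (Ifnb1, Isg15, Ifit1, Cxcl10, Ddx58 and Zbp1) were called higher in every line, although Ifnb1, and Zbp1 in E0771, passed the low-count filter through the RIG-I libraries alone. Epithelial markers gave each label little to rest on, and Epcam was at 0 in the control libraries of every line. The 12 colon markers summed to 40.9 to 45.6 CPM (counts-per-million) in CT26 control libraries, mostly Krt18 (22.7) and Krt20 (18.4), and to 1.54 to 1.61 CPM in those of MC38. The 11 mammary markers summed to 225 to 279 CPM in E0771 control libraries, mostly Krt8 (250.1), with Krt18, Krt5 and Krt14 at 0. None of the 12 leukocyte markers was called in any line by edgeR or DESeq2 (2 to 3 passed the low-count filter, 1 per line with an unadjusted p under 0.05). They summed to between 3.33 and 19.5 CPM per library, with Adgre1 at 0 in CT26 and E0771. Of the 9 fibroblast and endothelial markers, edgeR called 1 higher and 2 lower of 7 tested in CT26 and 3 lower of 7 in MC38. The higher one, Kdr, passed the low-count filter through the RIG-I libraries alone. In E0771 edgeR called none of 4 (DESeq2 none, 1 with an unadjusted p under 0.05), and Dcn and Lum were at 0. Over all genes tested 19.8% were higher and 18.6% lower in CT26, 1.53% and 0.0256% in E0771, and 18.9% and 16.9% in MC38. The levels of the 9 markers summed to 123 to 129 CPM in control and 102 to 107 CPM in RIG-I libraries of CT26. The sums were 211 to 229 and 179 to 184 CPM in E0771, and 153 to 161 and 118 to 123 CPM in MC38. That sum was lower with the RIG-I agonist in every line, and its part in the results on the 8 genes was not tested. In bulk RNA, fewer cells of a type and less of a transcript per cell cannot be told apart.

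S100 proteins are small calcium-binding proteins with a pair of EF-hand motifs. Most of them form dimers that open on binding calcium and then grip a partner protein, such as an annexin or a myosin heavy chain. S100A4, also called metastasin, binds non-muscle myosin IIA, is linked to cell motility and metastasis, and is also secreted. Stmn1 encodes stathmin, an unrelated phosphoprotein that sequesters tubulin dimers and destabilises microtubules, and it is abundant in many dividing tumour cells.

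All 7 S100 genes lie on mouse chromosome 3 (GRCm38). S100a1 (ENSMUSG00000044080.9, 90511034 to 90514392, minus strand), S100a13 (ENSMUSG00000042312.9, 90514435 to 90524581), S100a16 (ENSMUSG00000074457.10, 90537254 to 90543151), S100a4 (ENSMUSG00000001020.8, 90603771 to 90606045) and S100a6 (ENSMUSG00000001025.8, 90612882 to 90624181) stand close together. S100a11 (ENSMUSG00000027907.4, 93520488 to 93526287) and S100a10 (ENSMUSG00000041959.14, 93555080 to 93564643) form a separate pair farther along the chromosome. Stmn1 (ENSMUSG00000028832.11) spans 134468320 to 134473843 on chromosome 4. All of these but S100a1 are on the plus strand.

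The promoter windows below show how the start of S100a4 is written beside those of relatives that were called lower in 2 lines, S100a13 and S100a11. Each holds 300 bases of the RefSeq promoter table for GRCm38.p6, from 250 bases before the gene's start to 50 after it, on the plus strand. In S100a4 (chr3:90603520-90603819) the capitals mark a TATA box, TATAAA. In S100a13 (chr3:90514185-90514484) they mark the 204 bases that also lie in the window of S100a1, which is read from the other strand and starts 105 bases away. In S100a11 (chr3:93520246-93520545) they mark AP-1 motifs, TGANTCA, and GC boxes, GGGCGG.
S100a4 promoter: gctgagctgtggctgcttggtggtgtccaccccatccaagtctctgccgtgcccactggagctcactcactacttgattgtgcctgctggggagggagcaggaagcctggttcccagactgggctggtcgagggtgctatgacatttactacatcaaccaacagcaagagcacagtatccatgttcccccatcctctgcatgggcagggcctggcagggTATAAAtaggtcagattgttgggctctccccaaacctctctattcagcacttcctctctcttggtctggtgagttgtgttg
S100a13 promoter: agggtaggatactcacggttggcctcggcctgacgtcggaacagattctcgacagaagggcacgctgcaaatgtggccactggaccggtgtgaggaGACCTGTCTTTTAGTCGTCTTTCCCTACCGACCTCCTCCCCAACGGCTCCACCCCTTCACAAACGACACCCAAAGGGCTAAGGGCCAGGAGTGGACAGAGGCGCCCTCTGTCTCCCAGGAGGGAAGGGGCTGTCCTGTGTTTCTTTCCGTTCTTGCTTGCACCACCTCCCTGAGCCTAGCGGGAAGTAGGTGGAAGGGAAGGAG
S100a11 promoter: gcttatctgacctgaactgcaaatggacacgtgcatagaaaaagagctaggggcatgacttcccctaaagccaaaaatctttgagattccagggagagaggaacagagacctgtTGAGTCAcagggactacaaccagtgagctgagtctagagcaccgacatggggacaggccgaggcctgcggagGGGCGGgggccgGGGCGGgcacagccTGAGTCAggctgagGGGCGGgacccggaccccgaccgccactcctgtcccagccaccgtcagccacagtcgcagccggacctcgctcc

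The table held windows for 6 of the 8 genes, all but S100a10 and Stmn1. The TATA box of S100a4 began at position -31, and 13.6% of all 32851 windows of this length hold TATAAA on either strand. S100a11 had AP-1 motifs at -136 and -38 and GC boxes at -64, -52 and -24, letters found in 7.81% and 35.7% of all windows. S100a16 had more than 1 window. The window at its gene start (chr3:90537004-90537303) held no match to any of the motifs searched. Another, at a start inside the gene (chr3:90540896-90541195), had 1 AP-1 motif at -192 and 1 GC box at -30. No window of the 6 genes held the interferon-stimulated response element, searched as 2 copies of TTTC with 2 bases between them (3.44% of all windows), the GAS letters TTCNNNGAA (8.3%) or the E2F letters TTCCCGCC (2.19%). A match or its absence describes these letters in these windows and nothing more.

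S100a4 was lower with the RIG-I agonist in every library of every line. In CT26 its level was 1099, 1245 and 1301 CPM in the control libraries and 651, 659 and 638 CPM in the RIG-I libraries. In E0771 it was 108 and 87.3 CPM against 38.7 and 42.4 CPM, and in MC38 it was 278 and 264 CPM against 191 and 185 CPM. The groups did not overlap in any line, and the RIG-I libraries of CT26 lay closer together than its controls. The log2 fold change was -0.90 (SE 0.07) in CT26, -1.27 (SE 0.16) in E0771 and -0.53 (SE 0.04) in MC38. The RIG-I level was thus 0.534, 0.415 and 0.692 of the control level.

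S100a4 was the 1 gene called lower in all 3 lines among 10690 genes tested in all of them. It was chosen for this, so the calls do not test it. The count rests on E0771, where only 3 genes were called lower, S100a4, Stmn1 and Gm45837. That number was 45 with DESeq2, 639 with 1 spread shared by the 14 libraries and 1215 with a replicate block. Stmn1 had log2 fold changes of -0.28 in CT26 and -0.01 in MC38. Gm45837, with a log2 fold change of -3.37 (SE 0.42) in E0771, did not pass the low-count filter in the other lines. By contrast, 915 genes were called lower in both CT26 and MC38, and 167 were called higher in all 3 lines.

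**Figure D1:**
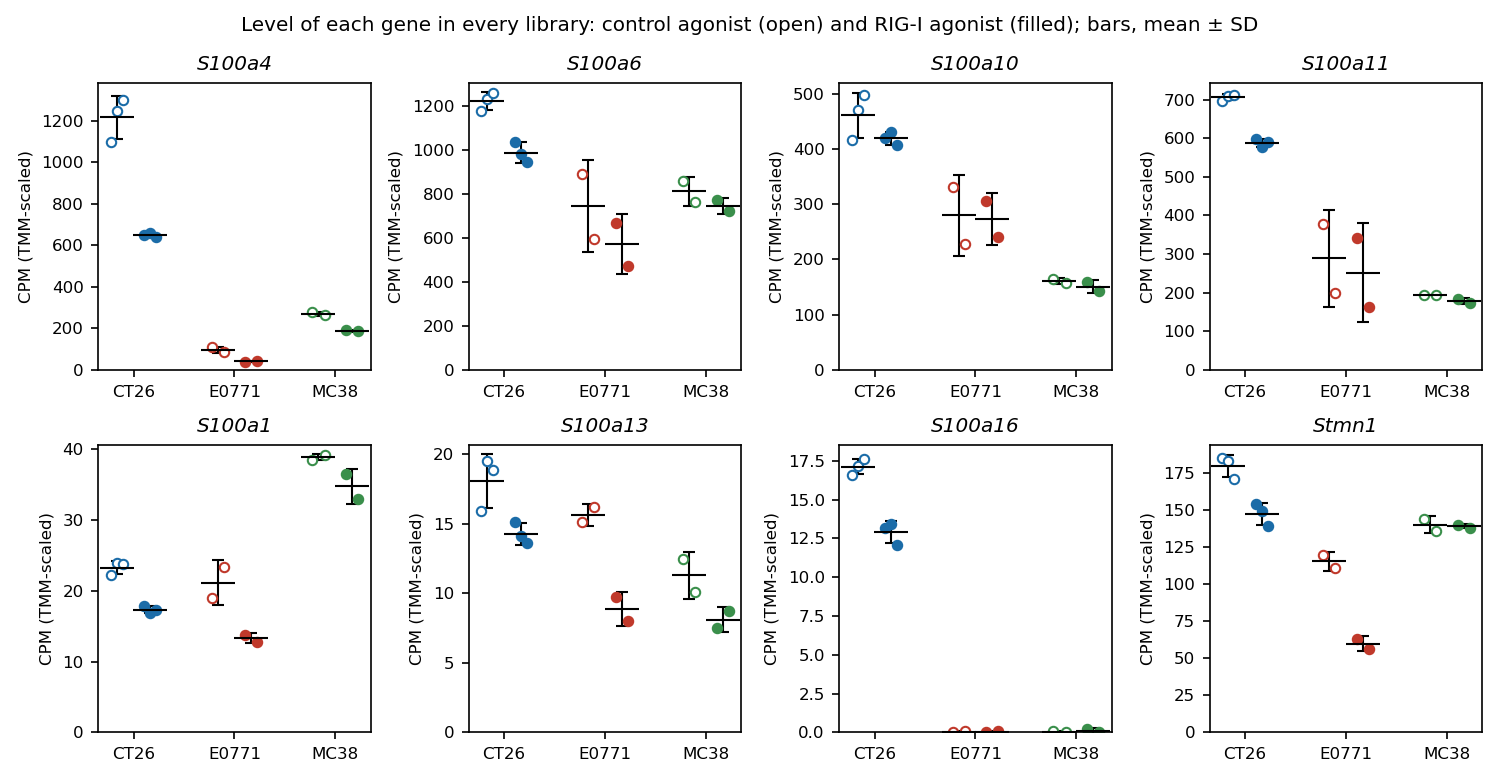
Level of each of the 8 genes in each library, in CPM on TMM-scaled library sizes, with control libraries as open and RIG-I libraries as filled circles and bars for the mean ± SD (3 libraries per agonist in CT26, 2 in E0771 and MC38). S100a4 shows 2 groups that do not overlap in any line, from 1099 to 1301 against 638 to 659 CPM in CT26, while in E0771 the libraries of S100a6, S100a10 and S100a11 spread widely within each agonist.

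In CT26 the relatives followed in direction and by less. Of the 6 genes, all tested, 5 were called lower by edgeR's quasi-likelihood test and none higher, where 18.6% of all genes tested were called lower and 19.8% higher. The control and RIG-I libraries of these 5 genes did not overlap, and over all genes tested this held, in the lower direction, for 25.0%. The median log2 fold change of the 6 was -0.33, and that of all genes tested was 0.0. Their effects, from -0.42 to -0.14, were all smaller in size than that of S100a4.

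S100a6, or calcyclin, and S100a11, both partners of annexins, were the most abundant of these relatives in CT26. S100a6 measured 1178, 1233 and 1261 CPM in control and 1038, 983 and 946 CPM in RIG-I libraries (log2 fold change -0.31, SE 0.06, edgeR adjusted p = 0.00206). S100a11 measured 697, 709 and 713 CPM against 598, 578 and 589 CPM (log2 -0.26, SE 0.06, edgeR adjusted p = 0.00366). Both fell without overlap of the groups. S100a10, or p11, forms a tetramer with annexin A2 and is unusual among S100 proteins in not needing calcium. Its levels were 417, 469.9 and 497 CPM in control and 419, 431 and 407 CPM in RIG-I libraries, and the groups overlapped through the first control library. Its difference did not pass the test (log2 -0.14, SE 0.07, edgeR adjusted p = 0.15), but it did when that control library was left out (log2 -0.21, edgeR adjusted p = 0.00529).

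The 3 scarcer relatives also fell in CT26. S100a1, best known as a regulator of calcium handling in muscle, went from 22.2, 23.9 and 23.7 CPM to 17.9, 16.8 and 17.3 CPM (log2 -0.42, SE 0.07, edgeR adjusted p = 0.000279). S100a13, known for its part in the stress-induced release of fibroblast growth factor 1, went from 15.9, 19.5 and 18.9 CPM to 15.1, 14.1 and 13.6 CPM (log2 -0.34, SE 0.09, edgeR adjusted p = 0.00631). S100a16, a widely expressed member, went from 16.6, 17.2 and 17.6 CPM to 13.2, 13.4 and 12.1 CPM (log2 -0.41, SE 0.07, edgeR adjusted p = 0.000561). Every RIG-I library was below every control library for each of the 3 genes. With 1 spread shared by the 14 libraries the count of relatives called lower in CT26 was 2 in place of 5, as S100a6 (edgeR adjusted p = 0.0846), S100a11 (0.412) and S100a16 (0.117) were no longer called.

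In E0771 none of the 5 relatives tested was called by edgeR without a replicate block. Of all genes tested, 0.0256% were called lower and 1.53% higher. DESeq2 also called none, and 2 had an unadjusted p under 0.05. These 2 were S100a1 and S100a13, whose starts face away from each other in the shared window printed above. S100a13 measured 15.1 and 16.2 CPM in control and 9.72 and 7.99 CPM in RIG-I libraries (log2 -0.82, SE 0.21, edgeR adjusted p = 0.241). S100a1 measured 18.9 and 23.4 CPM against 13.8 and 12.8 CPM (log2 -0.68, SE 0.19, edgeR adjusted p = 0.301). For these 2 genes the groups did not overlap, which in the lower direction held for 20.0% of all genes tested in E0771. With a replicate block both were called lower (edgeR adjusted p = 0.00446 for S100a1 and 0.00192 for S100a13), as were 1215 genes in all. With 1 spread shared by the 14 libraries both were called lower too (0.00169 and 0.00412), as were 639 genes in all.

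S100a6, S100a10 and S100a11 overlapped between the agonists in E0771, and the first replicate was the higher one in both groups. S100a6 was at 893 and 596 CPM in control and 670.5 and 475 CPM in RIG-I libraries (log2 -0.38, SE 0.28, edgeR adjusted p = 0.744). S100a11 was at 377 and 200.3 CPM against 342 and 162 CPM (log2 -0.2, SE 0.45, edgeR adjusted p = 0.931). S100a10 was at 331 and 228 CPM against 306 and 240.0 CPM (log2 -0.03, SE 0.23, edgeR adjusted p = 0.982). The spread between replicates of 1 agonist was larger than the difference between agonists for each of these 3 genes. A change of the size seen in CT26 was thus not detectable in this fit, which has no replicate block. With that block S100a6 was called lower (edgeR adjusted p = 0.00371), and S100a10 and S100a11 were not called (0.894 and 0.0539). Leaving out 1 library turned the sign of S100a10 and S100a11, whose log2 fold changes then ranged from -0.28 to 0.26 and from -0.83 to 0.33.

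In MC38, 2 of the 5 relatives tested, S100a11 and S100a13, were called lower and none higher by edgeR, where 16.9% of all genes tested were called lower and 18.9% higher. S100a11 measured 194 and 194 CPM in control and 184 and 172 CPM in RIG-I libraries (log2 -0.13, SE 0.04, edgeR adjusted p = 0.0161). S100a13 measured 12.5 and 10.1 CPM against 7.49 and 8.73 CPM (log2 -0.47, SE 0.14, edgeR adjusted p = 0.0142). The effect on S100a13 was close in size to that on S100a4 in this line, although S100a13 rests on 92 to 194 counts per library. DESeq2 called neither gene (adjusted p = 0.254 and 0.287). S100a11 also lost its call without control replicate 1 (edgeR adjusted p = 0.0686), control replicate 2 (0.065) or RIG-I replicate 2 (0.244), and S100a13 lost it without control replicate 1 (0.234) or RIG-I replicate 1 (0.0959).

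The other 3 relatives tested in MC38 did not pass the test. S100a1 was at 38.5 and 39.1 CPM against 36.5 and 33.0 CPM (log2 -0.17, SE 0.07, edgeR adjusted p = 0.0758), without overlap. S100a6 was at 860.2 and 766 CPM against 773 and 721 CPM (log2 -0.12, SE 0.06, edgeR adjusted p = 0.184), and S100a10 at 165 and 157 CPM against 159 and 142 CPM (log2 -0.11, SE 0.05, edgeR adjusted p = 0.105). The groups of S100a6 and S100a10 overlapped. Of the 5 relatives, 3 had groups that did not overlap in the lower direction, which held for 33.8% of all genes tested. The median log2 fold change of the 5 was -0.13 in MC38 and -0.38 in E0771, beside -0.0 and -0.01 for all genes tested.

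**Figure D2:**
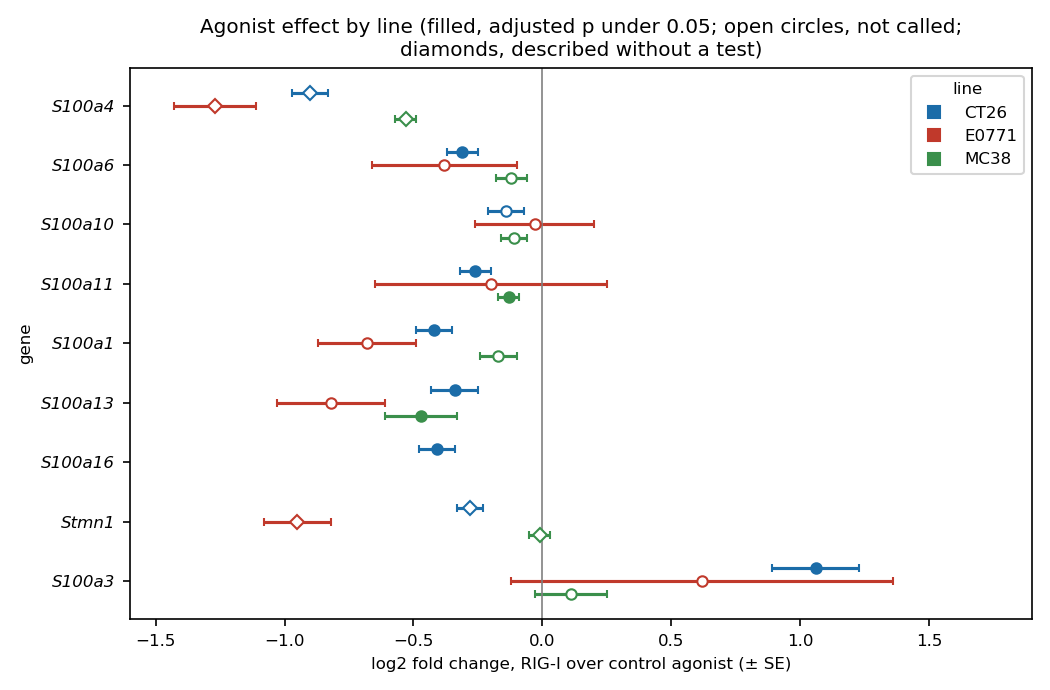
Log2 fold change of RIG-I over control agonist with its standard error, for the 8 genes and S100a3 in each line. Filled circles passed edgeR's test at an adjusted p under 0.05, open circles did not, and diamonds mark S100a4 and Stmn1, which were not tested. S100a16 is drawn in CT26 alone, the line where it passed the low-count filter. S100a3 lies at 1.06 in CT26, opposite to S100a4, and in E0771 it passed that filter through the RIG-I libraries alone.

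The effects on the relatives were not shown to differ between lines. In the fit of all 14 libraries, none of the 6 genes was called for a difference of the agonist effect between CT26 and E0771, between CT26 and MC38 or between E0771 and MC38, where 3.88%, 3.8% and 2.11% of all genes were called. The smallest adjusted p-values from edgeR were 0.277, 0.233 and 0.126, and DESeq2 called none. For S100a16 these differences rest on 0 to 3 counts per library outside CT26. The unadjusted p was under 0.05 for 1 gene in each comparison: S100a13 between CT26 and E0771 (0.0426), S100a1 between CT26 and MC38 (0.0377) and S100a1 between E0771 and MC38 (0.00502). S100a1 was called in the last comparison when E0771 control replicate 1 was left out.

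Stmn1 did not move in the same way in the 3 lines. Its levels were 185, 183 and 171 CPM in control and 154, 149 and 139 CPM in RIG-I libraries of CT26. They were 119.8 and 111 CPM against 63.3 and 56.5 CPM in E0771, and 144 and 136 CPM against 140.1 and 138 CPM in MC38. The groups did not overlap in CT26 and E0771 and did in MC38. The log2 fold change was -0.28 (SE 0.05) in CT26, -0.95 (SE 0.13) in E0771 and -0.01 (SE 0.04) in MC38. In E0771 the RIG-I level was 0.519 of the control level, and in MC38 the estimate ranged from -0.05 to 0.03 when 1 library at a time was left out.

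Stmn4, a stathmin of neurons, held 21 counts in 3 control libraries and 94 in 3 RIG-I libraries of CT26 (log2 2.21, SE 0.35). It passed the low-count filter through the RIG-I libraries alone, so no test is given. Stathmins and tubulins together, Stmn1 included, had 3 genes called higher, 2 of which passed the filter in that way, and 10 lower of 24 tested in CT26, where 19.8% of all genes were called higher and 18.6% lower. Their median log2 fold change was -0.14. Tuba8, an alpha-tubulin that also passed through the RIG-I libraries alone, was at 0.0601 ± 0.0281 CPM in control and 0.732 ± 0.144 CPM in RIG-I libraries. Tubb4a, a beta-tubulin, fell from 2.15 ± 0.297 to 1.42 ± 0.134 CPM (edgeR adjusted p = 0.0257). In MC38 none of 21 was higher and 7 were lower (18.9% and 16.9% of all genes), with Tuba1a, an alpha-tubulin, falling the most, from 268 ± 12.7 to 199 ± 5.13 CPM (log2 -0.43, SE 0.04, edgeR adjusted p = 1.89e-08). In E0771 the 1 gene called of 22 was Stmn1 itself.

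Genes of proliferation, where stathmin is usually placed, had 1 higher and 8 lower of 28 tested in CT26, 2 higher and 5 lower in MC38 and none in E0771. Over all genes 19.8% were higher and 18.6% lower in CT26, and 18.9% and 16.9% in MC38, so the share lower in MC38 was near that of all genes. In E0771, 5 of these had an unadjusted p under 0.05 and DESeq2 called 1. Ccnb2, a mitotic cyclin, fell from 77.9 ± 1.26 to 57.5 ± 2.22 CPM in CT26 (log2 -0.44, SE 0.06, edgeR adjusted p = 5.24e-05) and from 85.6 ± 2.31 to 66.6 ± 1.55 CPM in MC38 (log2 -0.36, SE 0.05, edgeR adjusted p = 1e-05). Tpx2, a spindle factor, fell in CT26 (log2 -0.27, edgeR adjusted p = 0.004) and in MC38 (log2 -0.14, edgeR adjusted p = 0.00349). Mcm6, a subunit of the replicative helicase, was the gene that rose in CT26 (log2 0.21, edgeR adjusted p = 0.0167), and it rose in MC38 (log2 0.13, edgeR adjusted p = 0.00418). Mki67, the proliferation marker Ki-67, fell in MC38 (log2 -0.47, SE 0.04, edgeR adjusted p = 1.76e-09), the line in which Stmn1 stayed near its control level. Mki67 also fell in CT26 (log2 -0.21, edgeR adjusted p = 0.0123), and in E0771 its estimate was -0.7 (SE 0.16), not called. The list's median log2 fold change was -0.05 for CT26, -0.21 for E0771 and -0.01 for MC38.

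The 8 genes also differed in level between the lines before any effect of the RIG-I agonist, and CT26 was the line richest in S100a4. S100a16 passed the filter through CT26 alone and is not counted here. Of the other 7 genes, in control libraries, all were higher in CT26 than in E0771, and 6 were higher and 1 lower in CT26 than in MC38. Between E0771 and MC38, 2 were higher in E0771, 3 were lower and 2 were not called. The calls of S100a1 and S100a13 between CT26 and E0771 lay close to the threshold (edgeR adjusted p = 0.039 and 0.0483) and were lost in 7 and 11 of 19 alternatives, among them leaving out E0771 control replicate 1 (0.425 and 0.187). Over all genes 70.3%, 73.6% and 64.1% were called in these 3 comparisons, so a call here sets no gene apart. Between CT26 and E0771, line cannot be told apart from mouse strain or sequencing depth, between CT26 and MC38 from medium, strain or depth, and between E0771 and MC38 from medium.

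S100a4 was 13.4 times as high in CT26 as in E0771 (log2 3.75, SE 0.12, edgeR adjusted p = 9.47e-12) and 4.82 times as high as in MC38 (log2 2.27, SE 0.11, edgeR adjusted p = 5.55e-10). E0771 was also below MC38 (log2 -1.48, SE 0.11, edgeR adjusted p = 8.45e-08), so the order was CT26, MC38, E0771, with each neighbour apart beyond the spread. S100a1 had another order, with MC38 above CT26 (log2 -0.64 for CT26 minus MC38, SE 0.09, edgeR adjusted p = 3.74e-05). S100a6 and S100a11 were not called between E0771 and MC38 (edgeR adjusted p = 0.497 and 0.141). Stmn1 differed less, at 1.68 times the E0771 level and 1.37 times the MC38 level in CT26.

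S100a16 was nearly confined to CT26 among these lines. It held 1966 counts in the 3 control libraries of CT26 and 1 count in the control libraries of E0771 and of MC38. The ratio of its level was 464 (95% interval 83.1 to 18321) against E0771 and 525 (94.2 to 20760.5) against MC38, intervals that cover counting error only. Its RIG-I libraries held 1 count in E0771 and 3 in MC38, so its agonist effect could be measured in CT26 alone. In E0771 and MC38 it stayed at or near the floor of 3 counts per library, which is 0.224 to 0.242 CPM and 0.158 to 0.243 CPM.

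Per length of transcript, in CPM per kb on scaling factors common to the 14 libraries, the genes can be set in order within a line. S100a4 led in CT26 control libraries at 2565 ± 223, above S100a6 at 2155 ± 78.1 and S100a11 at 1453 ± 21.5. With the RIG-I agonist S100a6 stood above it, at 1685 ± 79.7 against 1326 ± 24.6, an order that turned with the choice of length: on the union of exons S100a4 (1131) stood above S100a6 (736) and below S100a11 (1171) in these libraries. In E0771 S100a6 led (1211 ± 337) and S100a4 (191 ± 28.1) came after S100a11 and S100a10, and in MC38 S100a4 (533 ± 20.6) stood next below S100a6 (1334 ± 112). S100a10 and S100a11 in E0771, at 467 ± 119 and 549 ± 235, did not differ beyond their spread. Where the union of exons was taken as the length, S100a11 stood above S100a6 in CT26 and E0771, and S100a4 stood below S100a11 in MC38 RIG-I libraries.

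**Figure D3:**
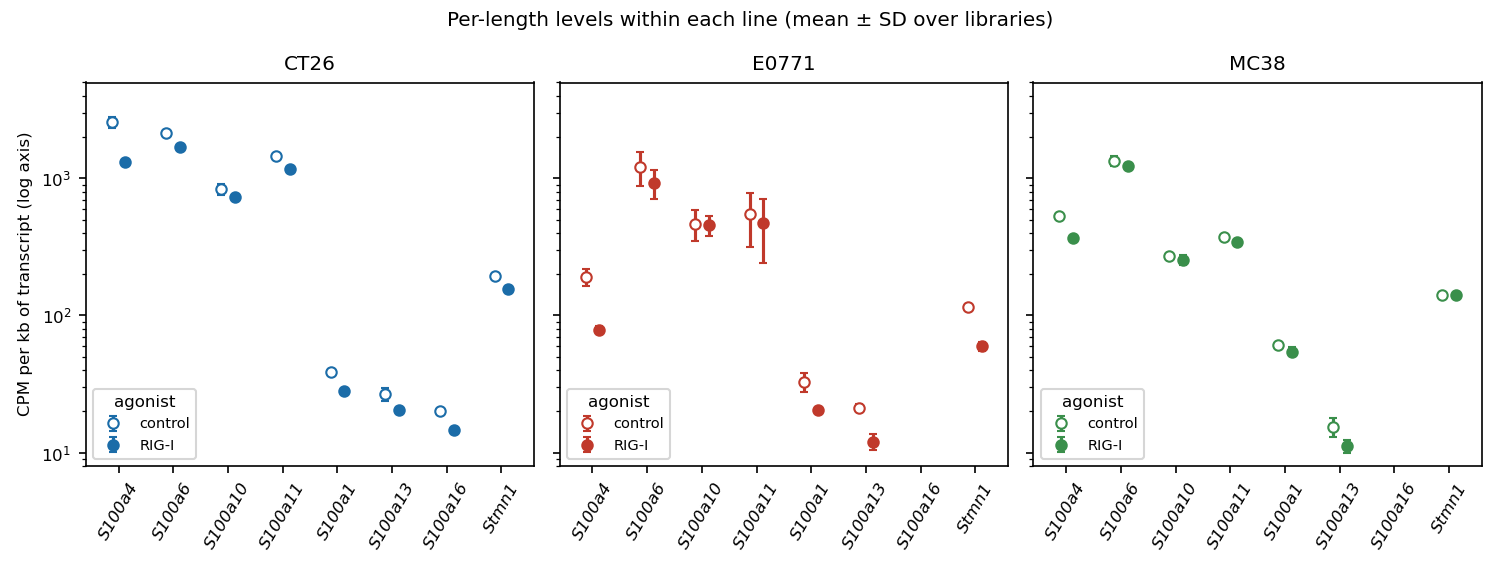
Mean level ± SD of the 8 genes per kb of transcript (log axis) in each line, with control libraries open and RIG-I libraries filled; S100a16 is left out in E0771 and MC38, where it held 0 to 3 counts per library. S100a4 leads in CT26 control at 2565 CPM per kb and stands behind S100a6 with the RIG-I agonist on this length (median of coding transcripts) but above it on the union of exons, while in E0771, at 191 CPM per kb, it lies below S100a6, S100a10 and S100a11.

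As a share of all S100 transcript measured per length, S100a4 made up 36.1% ± 1.14 (SD, n = 3) in CT26 control and 26.6% ± 0.44 in RIG-I libraries. In E0771 the share was 7.86% ± 1.13 and 4.18% ± 1.4 (n = 2), and in MC38 it was 20.5% ± 0.341 and 16.3% ± 0.417 (n = 2). In each line every RIG-I library had a lower share than every control library. S100a4 was chosen for its fall, so this lower share restates the choice and tests nothing. The share of S100a10 was 11.7% ± 0.4 in control and 14.7% ± 0.359 in RIG-I libraries of CT26. Its own level did not rise there, at 461 ± 40.7 against 419 ± 11.9 CPM. The sum of all 17 S100 genes, S100a4 included, was 3678 ± 199 against 2705 ± 65.2 CPM in CT26. It was 1451 ± 419 against 1164 ± 312 CPM in E0771 and 1499.6 ± 83.8 against 1318 ± 64.1 CPM in MC38. Within the CT26 sum, S100a4 alone went from 1215 to 649 CPM.

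Outside the 8 genes, the S100 family held 1 gene that rose. S100a3, a cysteine-rich relative known from hair cuticle, went from 1.61, 1.69 and 1.33 CPM to 2.94, 3.38 and 3.34 CPM in CT26 (log2 1.06, SE 0.17, edgeR adjusted p = 0.00028). In E0771 it was at 1.32 and 0.411 CPM against 1.82 and 0.879 CPM (log2 0.62, SE 0.74). There S100a3 passed the low-count filter through the RIG-I libraries alone, so no test is given. In MC38 it was at 9.01 and 9.29 CPM against 11 and 9.0 CPM (log2 0.11, SE 0.14, edgeR adjusted p = 0.573). It was thus raised without overlap in CT26 and overlapped in the other lines. S100a7a, a relative of the skin protein psoriasin, was present in CT26 with no change called (10.7 ± 1.11 against 10.6 ± 0.387 CPM, edgeR adjusted p = 0.93), and S100a14 was not called there (log2 -0.62, SE 0.34, edgeR adjusted p = 0.164).

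S100a8, a subunit of the myeloid protein calprotectin, passed the filter in E0771 alone, at 2.26 and 2.06 CPM in control and 1.34 and 1.39 CPM in RIG-I libraries (log2 -0.65, SE 0.4, edgeR adjusted p = 0.679). Its partner S100a9 was at 0 in E0771 and MC38 and held 1 count in CT26. S100a2, S100a5 and S100b did not pass the filter in any line. S100g was at 0 in all lines, and S100z held 3 counts in all, in E0771 RIG-I libraries.

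S100a3 ends just before S100a4 begins. Of 24 other genes tested in CT26 whose start lies within 500 kb of it, 5 were called lower and 6 higher, shares near the 18.6% and 19.8% of all genes. Of the 5 lower ones, 4 were S100a1, S100a6, S100a13 and S100a16, and the other was Snapin (log2 -0.3, SE 0.06, edgeR adjusted p = 0.00175), which encodes a SNARE-associated protein. The largest changes were those of S100a3 and of Gm42674 (log2 1.07, SE 0.28, edgeR adjusted p = 0.00907). In MC38, 5 of 20 were lower and 3 higher by edgeR, beside 16.9% and 18.9% of all genes, and DESeq2 called none. Among these 3 higher genes was Gm42674, which passed the low-count filter in MC38 through the RIG-I libraries alone. In E0771 none of 17 was called by either tool, and 2 had an unadjusted p under 0.05.

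Gm42674 (ENSMUSG00000105518.1, 90601904 to 90605885 on chromosome 3, plus strand) runs from within S100a3 across most of S100a4 on the same strand, so reads of the 3 genes can be divided between them in the estimated counts. It held 0.0358% as many counts as S100a4 in CT26 control and 0.142% in RIG-I libraries, and at most 0.632% in any group of the other lines. Beside the scarcer S100a3 it was not small: Gm42674 held 50 counts in CT26 control and 101 in RIG-I libraries, where S100a3 held 177 and 352. The part of such divided reads in the rise of S100a3 was not tested. Within 500 kb of S100a10 the 1 gene tested in all 3 lines was S100a11. Around Stmn1, 5 genes were lower and 3 higher of 22 in CT26, 3 were lower and 3 higher of 21 in MC38, and 1 of 22 was higher in E0771. Over all genes 18.6% were lower and 19.8% higher in CT26, 16.9% and 18.9% in MC38, and 1.53% higher in E0771. The gene in E0771 was Cnksr1, a scaffold protein of Ras signalling, which rose in all 3 lines (log2 1.73, 2.75 and 0.59 in CT26, E0771 and MC38, edgeR adjusted p = 1.32e-06, 0.0272 and 0.000974). The next largest change near Stmn1 in CT26 was that of Rsrp1 (log2 0.67, edgeR adjusted p = 1.14e-06).

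**Figure D4:**
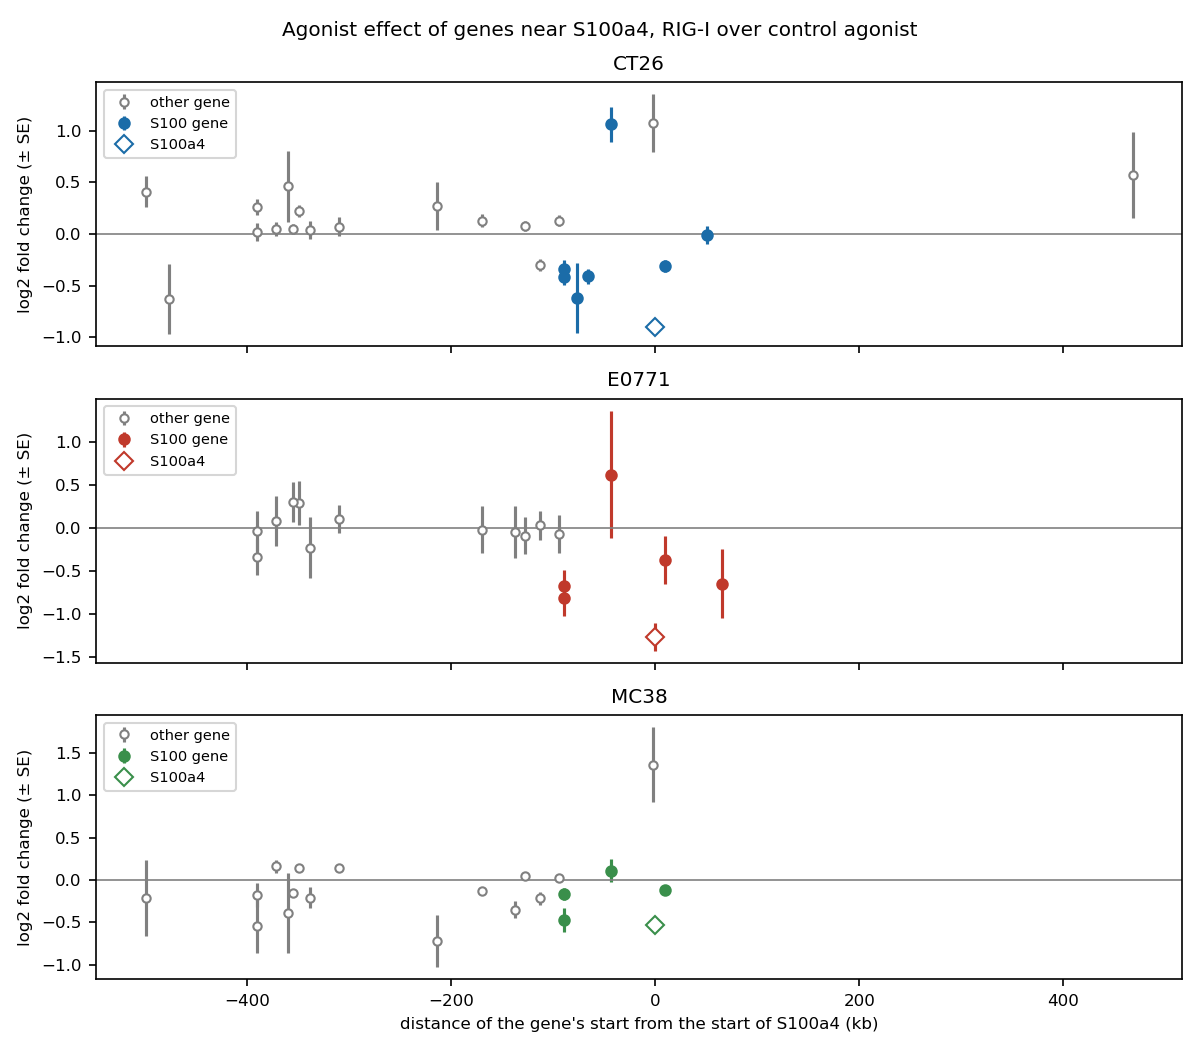
Log2 fold change (± SE) of genes whose start lies within 500 kb of the start of S100a4, by distance in kb, with S100 genes filled, other genes open and S100a4 as a diamond at 0. In CT26 the S100 genes other than S100a4 lie from -0.62 (S100a14, not called) to 1.06 (S100a3, at -43.2 kb). S100a6 lies below 0 at 9.1 kb, and S100a1, S100a13 and S100a16 lie below 0 farther from S100a4.

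Genes of partners and receptors of S100 proteins had 3 called higher and 6 lower of 20 tested in CT26, and 4 higher and 4 lower of 17 in MC38. The shares over all genes were 19.8% higher and 18.6% lower in CT26, and 18.9% and 16.9% in MC38. In E0771 edgeR and DESeq2 called none of 17, and 3 had an unadjusted p under 0.05. Ahnak, which encodes a giant scaffold bound by the complex of S100A10 and annexin A2, fell from 1228 ± 97.4 to 896 ± 12.1 CPM in CT26 (log2 -0.45, SE 0.07, edgeR adjusted p = 0.00018) and from 660.0 ± 36.5 to 384 ± 25.7 CPM in MC38 (log2 -0.78, SE 0.05, edgeR adjusted p = 2.67e-06). Anxa6, an annexin bound by S100 proteins, rose from 0.623 ± 0.11 to 2.05 ± 0.198 CPM in CT26 (log2 1.72, SE 0.23, edgeR adjusted p = 5.74e-05), and Myh10, the heavy chain of non-muscle myosin IIB, was at 0.272 ± 0.0624 CPM in control and 0.518 ± 0.0852 CPM in RIG-I libraries of CT26, having passed the filter through the latter alone. Itgb4, the integrin beta 4 chain, fell in CT26 (log2 -0.42, SE 0.11, edgeR adjusted p = 0.00917). The median of the list was -0.11, -0.05 and -0.01 in CT26, E0771 and MC38, beside 0.0, -0.01 and -0.0 over all genes tested.

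Among mesenchymal and motility genes, in which S100a4 is often listed, 5 were higher and 9 lower of 20 tested in CT26 and 4 higher and 9 lower of 19 in MC38. Beside these stand 19.8% higher and 18.6% lower of all genes in CT26, and 18.9% and 16.9% in MC38, so the shares higher were near those of all genes. In E0771 none of 16 was called by edgeR or DESeq2 and none had an unadjusted p under 0.05. Fn1, the matrix protein fibronectin, fell from 1299 ± 198 to 752 ± 17.0 CPM in CT26 (log2 -0.79, SE 0.09, edgeR adjusted p = 2.28e-05) and from 833 ± 32.6 to 536 ± 5.41 CPM in MC38 (log2 -0.63, SE 0.03, edgeR adjusted p = 3.59e-12). Snai2, which encodes the transcription factor Slug, rose in CT26 (log2 0.73, SE 0.08, edgeR adjusted p = 1.11e-05) and in MC38 (log2 0.8, SE 0.16, edgeR adjusted p = 0.000476). In CT26 Itga5, the fibronectin-binding integrin chain, rose (log2 0.41, edgeR adjusted p = 0.000218) and Col1a1, a collagen chain, fell (log2 -0.48, edgeR adjusted p = 0.0184). In MC38 Col1a1 also fell (log2 -1.04, SE 0.28, edgeR adjusted p = 0.00606), and Itga5 was not called (log2 -0.11, SE 0.05). Genes of this list thus moved both ways. Beside them, Pdgfrb and Pdgfra of the fibroblast and endothelial markers fell in CT26 (log2 -0.42 and -0.34) and in MC38 (-0.81 and -0.68). In E0771 they were at 0.07 (SE 0.21) and -0.41 (SE 0.15), and neither was called. In all, edgeR called 2 of 7 such markers lower in CT26 and 3 of 7 in MC38. Kdr was higher in CT26, having passed the low-count filter through the RIG-I libraries alone. These libraries are of tumour cell lines, and the part of such markers in the result was not tested.

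Other small calcium-binding and actin-monomer genes had none higher and 7 lower of 13 tested in CT26, and 1 higher and 2 lower of 12 in MC38. Over all genes 19.8% were higher and 18.6% lower in CT26, and 18.9% and 16.9% in MC38, which the share lower in MC38 nearly equals. In E0771 neither edgeR nor DESeq2 called any of 14, and 1 had an unadjusted p under 0.05. Calm3, which encodes the calcium sensor calmodulin, fell from 283 ± 9.45 to 228 ± 3.4 CPM in CT26 (log2 -0.31, SE 0.06, edgeR adjusted p = 0.000697) and from 218 ± 0.89 to 194 ± 0.359 CPM in MC38 (log2 -0.16, SE 0.04, edgeR adjusted p = 0.00141). These effects lay within the range of those on the S100 relatives in the same line. The median of the list was -0.19 in CT26, where the 6 relatives had -0.33.

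Over the 14 libraries, with each line centred on its own mean, S100a4 was compared with 8208 genes that were tested in every line and had a mean of at least 3 log2 CPM in each. The genes most like it were Lsm6 (Pearson r = 0.99), Lin7c (0.98), Idh1 (0.98), Fopnl (0.98) and Adk (0.97). Of these Idh1, cytosolic isocitrate dehydrogenase, had effects nearest to those of S100a4 in size, at log2 -0.57, -1.21 and -0.47 in CT26, E0771 and MC38. S100a1 and S100a13 followed at r = 0.91 and 0.88, which put them at ranks 117 and 199, and Stmn1 at 0.86, rank 255. S100a6 had 0.73, S100a11 0.4 and S100a10 0.37. These values are descriptions, since the libraries share agonist, line and depth.

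The genes most like Stmn1 were Nek2, a mitotic kinase (r = 0.96), Nagk (0.94), Polh (0.93), Arpin (0.93) and Kifc5b, a kinesin (0.93). Their log2 fold changes ran from -0.72 to -0.33 in E0771, from -0.29 to -0.11 in CT26 and from -0.21 to -0.04 in MC38, a pattern that choosing them by likeness to Stmn1 favours.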

How the data were processed

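Salmon, DESeq2 and the GRCm38 build are named in the submitters' processing notes, without versions or roles; the annotation and strand setting are not given in the sources used here. The authors deposited 3 tables, 1 per line, of estimated counts per gene (34866 Ensembl identifiers), which were rounded to whole numbers. Identifiers were matched to GENCODE M21 for symbols and positions (1-based): 32644 matched with version, 34652 without, and 214 did not. Estimated counts divide reads of near-identical or overlapping genes; pseudogenes named after the 8 genes held 8 counts in all (S100a11-ps).

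Groups and replicate numbers came from the sample titles. Each line was fitted alone with edgeR 4.0.16 (R 4.3.3, limma 3.58.1) by the robust quasi-likelihood F test, with TMM normalization, filterByExpr at a minimum count of 10, a prior count of 0.125 and p-values adjusted by Benjamini and Hochberg across every gene tested, with a threshold of 0.05. Differences between lines came from 1 fit of all 14 libraries, whose shared spread (biological coefficient of variation 0.122) lies between those of E0771 (0.202), CT26 (0.102) and MC38 (0.0304). CPM values use TMM-scaled library sizes; lengths are medians over coding transcripts. A count of 0 allows up to 3 counts, or 0.074 to 0.0914 CPM per library in CT26. Floors and count intervals (95%, exact) cover counting error only. Replicates differed by more than sampling noise in every group (chi-square per degree of freedom 2.26 to 43.6), so each counts as 1 library. They differed least in MC38 (2.26 in control and 2.44 in RIG-I libraries), the line with the smallest spread, against 7.7 to 43.6 elsewhere. These values cannot show whether replicates were separate cultures, so p-values in MC38 measure only that small spread.

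The 8 genes and all gene lists were chosen with earlier results of these data known. Text names the 8 genes, other S100 genes with counts, the called genes of each list with the largest changes (2 up and 2 down in CT26, 1 in each other line), the 2 neighbours within 500 kb with the largest change in CT26, and the 5 genes most like S100a4 or Stmn1 by Pearson's r of log2 CPM (prior count 2). Snapin was named after its values were seen, and 1 gene that the rule names is not reported here. The fits were tested on simulated data in which 100 genes each were changed by 0.5 and by 1 log2 unit. Recovered were 58% and 99% in CT26, 1% and 38% in E0771, and 89% and 100% in MC38. These shares come from a single random draw and change with the draw. Alternatives were other scalings, DESeq2 1.42.0, no low-count filter, protein-coding genes only, pseudogene counts added, a replicate block, a shared spread and leaving out each library. Exon-union lengths were added after seeing the data.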

Additional observations from a re-analysis of the deposited data

How the results depend on the processing

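Of 774 alternatives for 49 single-gene values, 713 were the same, 34 lost a call and 17 gained one. Another 1 moved by more than the spread between replicates and 9 changed sign. The same meant the same direction and side of the threshold. For the agonist effects on S100a4 and Stmn1, which have no test, it meant the same direction and a move smaller than the spread between replicates. With 1 spread shared by the 14 libraries, the S100 relatives called lower numbered 2 in CT26, 2 in E0771 and 0 in MC38, against 5, 0 and 2; genes called higher numbered 1520 in CT26, 949 in E0771 and 624 in MC38, against 2751, 180 and 2338, and genes called lower 639 in E0771 and 374 in MC38, against 3 and 2099. DESeq2 called no relative in MC38, and called 45 genes lower and 370.0 higher in E0771 and 804 lower and 1153 higher in MC38. With no low-count filter 22 genes were lower in E0771.

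With the replicate block, 3 relatives were called lower in E0771 (S100a1, S100a6 and S100a13), 4 in MC38 and 5 in CT26, and E0771 had 1215 genes lower and 1243 higher. The numbers were not shown to pair the libraries in CT26 or MC38. Deviations of same-numbered libraries correlated at 0.0924, 0.0842 and 0.262 in CT26, where not every library correlated best with its own number. In MC38 the 2 numbers gave -0.0179. In E0771 same-numbered libraries gave 0.639, but the labels do not say what libraries of the same number share. The value of different-numbered ones, -0.639, adds nothing, since with 2 libraries per agonist it must be the same with the opposite sign. No paired analysis was possible for control levels between lines because each number is nested in 1 line.

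Leaving out 1 library at a time gave 5 to 6 relatives called lower for CT26, none for E0771 and 0 to 3 for MC38, with 2 to 8 genes lower and 159 to 212 higher in E0771, and 0 to 1 relatives differing between E0771 and MC38. Where 1 library was left in a group, it was assumed to vary like the other group. The sign changes, all among these fits, had ranges of -0.28 to 0.26 (S100a10, E0771), -0.83 to 0.33 (S100a11, E0771), -0.05 to 0.03 (Stmn1, MC38), -0.02 to 0.26 (S100a3, MC38) and, for control levels in E0771 minus MC38, -0.45 to 0.13 (S100a6) and -2.94 to 3.09 (S100a16). In CT26 minus E0771 control levels, 6 to 8 of the 8 genes were called, a count that includes S100a16, which passed the filter through CT26 alone. Causes were not tested. S100a16 held 0 to 3 counts per library in E0771 and MC38, so no agonist effect was estimated there.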

Other observations

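Some lineage markers rose with the RIG-I agonist in CT26. Cdh17, an intestinal cadherin, rose from 1.7 ± 0.124 to 5.98 ± 0.147 CPM in CT26 (log2 1.82, SE 0.13, edgeR adjusted p = 1.23e-07). In MC38 it was at 0.327 ± 0.189 against 1.64 ± 0.361 CPM, having passed the low-count filter through the RIG-I libraries alone. Gata3, a transcription factor of the mammary and lymphoid lineages, rose in CT26 from 0.719 ± 0.151 to 2.41 ± 0.228 CPM (log2 1.74, SE 0.22, edgeR adjusted p = 3.65e-05). Kdr, a receptor of vascular endothelial growth factor, went from 0.00868 ± 0.015 to 0.983 ± 0.12 CPM in CT26, and passed the filter in the same way. Krt18, a keratin of simple epithelia, fell from 22.7 ± 2.38 to 16.3 ± 1.13 CPM in CT26 (log2 -0.48, SE 0.09, edgeR adjusted p = 0.000688) and was at 0 in E0771 and MC38.

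Other S100 genes also marked single lines in control libraries. S100a7a held 1234 counts in CT26 and 3 in E0771, a ratio of level of 97 (95% interval 33.1 to 471). S100a8 held 54 counts in E0771 and 3 in CT26, a ratio of 76.3 (24.8 to 382). S100a14 held 72 counts in CT26, 1 in E0771 and 2 in MC38.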
